A study of Arabidopsis thaliana with 9 samples.

Results

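WRKY transcription factors were examined in seedlings of 3 Arabidopsis thaliana genotypes. The set comprised 54 loci, all of them annotated WRKY genes chosen by locus identifier from a fixed list, out of 25199 loci in the expression table. RefSeq annotates 18 further WRKY loci that were not on the list and are not described here. Of the 54 members, 49 reached 1 FPKM (sequenced fragments corrected for transcript length and library size) in at least 3 libraries and were tested. The 5 members that did not were WRKY12, WRKY13, WRKY34, WRKY42 and WRKY55. All plants were of the accession Enkheim (En2), raised on agar plates under long days, left untreated and harvested whole at 7 days. The wild type was En2 itself. The RAV1 over-expression seedlings had raised RAV1 transcript in En2. Which promoter drives RAV1, and from how many lines the replicates came, was not stated in the labels. The last genotype, bes1-D, is a gain-of-function mutant known for a stabilised BES1 protein. Each genotype was measured in 3 biological replicates, and the series asks how RAV1 and BES1 affect each other and the genes of growth and defence.

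WRKY proteins are plant transcription factors named after a short peptide at the start of their DNA-binding domain, which folds around a zinc ion and reads the W box in DNA. They are sorted by the number of WRKY domains and the type of zinc finger into groups I, IIa to IIe and III. Many are switched on by pathogens, wounding, drought or leaf ageing, and many act on the promoters of other WRKY genes. RAV1 is a B3 and AP2 domain protein known for slowing growth and promoting leaf ageing, and BES1 carries the brassinosteroid growth signal into the nucleus. WRKY46, WRKY54 and WRKY70 are known as partners of BES1 in brassinosteroid growth and drought responses.

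The reference proteins of the 11 group I members contained 2 copies of the WRKY peptide, and those of the other 43 members contained 1. To show where WRKY proteins could bind in the promoters of WRKY genes, 5 windows of 300 bases directly upstream of the annotated gene start are printed here. WRKY75 and WRKY30 had the 2 largest differences between RAV1 over-expression and wild type on the log2(FPKM + 1) scale, WRKY15 was the most abundant gene higher in RAV1 over-expression, WRKY17 was lower in bes1-D, and WRKY33 varied widely between replicates. Capitals mark the W boxes TTGACC and TTGACT or their reverse complements GGTCAA and AGTCAA. The sequences are from the RefSeq assembly TAIR10.1, which is of the accession Columbia and not of Enkheim, and are written 5′ to 3′ on the strand of the gene. The windows are chr5:4151202-4151501 (minus strand), chr5:8154711-8155010 (minus strand), chr2:9924586-9924885 (plus strand), chr2:10439470-10439769 (minus strand) and chr2:16107935-16108234 (plus strand), in that order.
WRKY75: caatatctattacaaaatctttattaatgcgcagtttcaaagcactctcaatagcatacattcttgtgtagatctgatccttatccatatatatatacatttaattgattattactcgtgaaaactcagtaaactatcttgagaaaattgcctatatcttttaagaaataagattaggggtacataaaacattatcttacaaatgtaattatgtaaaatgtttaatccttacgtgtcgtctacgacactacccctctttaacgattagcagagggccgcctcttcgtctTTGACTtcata
WRKY30: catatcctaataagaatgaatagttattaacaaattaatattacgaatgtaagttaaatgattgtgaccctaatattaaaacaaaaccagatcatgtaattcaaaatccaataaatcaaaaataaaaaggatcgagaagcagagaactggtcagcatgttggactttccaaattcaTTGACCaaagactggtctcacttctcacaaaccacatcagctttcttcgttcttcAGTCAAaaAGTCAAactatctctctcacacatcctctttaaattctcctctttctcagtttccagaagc
WRKY15: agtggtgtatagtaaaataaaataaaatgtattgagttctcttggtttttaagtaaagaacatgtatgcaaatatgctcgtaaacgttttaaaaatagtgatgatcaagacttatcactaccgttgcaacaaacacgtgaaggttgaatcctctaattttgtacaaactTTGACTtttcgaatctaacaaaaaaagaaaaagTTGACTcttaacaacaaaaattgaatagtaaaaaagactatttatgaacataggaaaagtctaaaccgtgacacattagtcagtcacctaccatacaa
WRKY17: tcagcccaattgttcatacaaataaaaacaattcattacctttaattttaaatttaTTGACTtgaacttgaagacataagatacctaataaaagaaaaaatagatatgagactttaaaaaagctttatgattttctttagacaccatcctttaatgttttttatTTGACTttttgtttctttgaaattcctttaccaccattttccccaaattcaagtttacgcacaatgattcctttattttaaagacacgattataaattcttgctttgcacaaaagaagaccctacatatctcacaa
WRKY33: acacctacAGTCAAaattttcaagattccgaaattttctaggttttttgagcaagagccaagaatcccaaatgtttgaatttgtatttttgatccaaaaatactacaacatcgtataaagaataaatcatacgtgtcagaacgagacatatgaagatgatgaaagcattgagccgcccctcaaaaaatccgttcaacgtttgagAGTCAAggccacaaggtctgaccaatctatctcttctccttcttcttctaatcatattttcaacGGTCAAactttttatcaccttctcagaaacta

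WRKY75 had a single W box 11 bases before its start. WRKY30 had 3, at 124, 69 and 61 bases before the start, and WRKY33 had 3, at 292, 96 and 32 bases. WRKY15 had 2, at 131 and 98 bases, and WRKY17 had 2, at 244 and 136 bases. Across the family, 21 of 54 promoters (38.9%) held at least 1 W box, against 31.9% of the 19259 promoters of tested protein-coding genes. At least 2 W boxes stood in 9 of the 54 and in 7.49% of all. A match is a stretch of letters in the reference and was not measured as bound.

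The targeted gene separated the genotypes. RAV1 stood at 71.4, 99.0 and 81.9 FPKM in wild-type replicates 1 to 3, at 1064, 756 and 1426 FPKM in RAV1 over-expression, and at 53.9, 58.3 and 33.2 FPKM in bes1-D. Column sums ran from 890880 to 971271 FPKM over the 9 libraries, and between 22241 and 22551 loci were above 0. The absolute depth is unknown, and steps among low values gave only a rough relative depth of 83.5% to 114% of wild-type replicate 1. Lists of marker genes for other tissues and states were read in RAV1 over-expression against wild type. Of 9 tested seed maturation genes, 7 rose against wild type. Among these 7, EM1 and PAP85 reached 1 FPKM only in RAV1 over-expression libraries and were tested through those libraries alone. The summed level of all 13 listed seed genes was 23.6 to 38.3 FPKM in wild type and 144 to 1727 FPKM in RAV1 over-expression, highest in replicate 3 and lowest in replicate 2. All 6 shoot (photosynthesis) genes fell, from summed levels of 40261 to 43018 FPKM to levels of 21020 to 29838 FPKM. Of 8 tested leaf senescence genes 5 rose, among them SAG13, which also reached 1 FPKM only in RAV1 over-expression libraries. Of 11 root genes 3 rose, with a list median of -0.01. The share of all tested loci called higher was 15.0%. The part of these shifts in the WRKY levels was not tested, and in whole seedlings fewer cells of a type cannot be told apart from less RNA per cell.

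WRKY mRNA made up a small share of the wild-type transcriptome. The 54 members together reached 629.6, 745 and 818 FPKM in wild type, 930.9, 871 and 913 FPKM in RAV1 over-expression and 579.1, 758 and 659 FPKM in bes1-D. Every RAV1 over-expression library was above every wild-type library in this sum, and bes1-D overlapped wild type. The sums were not scaled between libraries. Over all tested loci the median log2(FPKM + 1) difference of RAV1 over-expression from wild type was 0.09, and -0.004 under trimmed-mean scaling.

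In wild type the most abundant member was WRKY11 (AT4G31550), a calmodulin-binding repressor of basal resistance to bacteria, at 58.4, 73.8 and 78.9 FPKM. WRKY33 (AT2G38470), the regulator of camalexin synthesis and of resistance to Botrytis, came next with 29.7, 66.8 and 56.5 FPKM. They were followed by WRKY15 (mean 46.1 ± 5.95 FPKM, SD, n = 3), WRKY22 (43.5 ± 13.8) and WRKY18 (39.2 ± 10.6). The ranges of WRKY11 and WRKY33 overlapped, as did those of WRKY33, WRKY15, WRKY22 and WRKY18, so only WRKY11 lay above WRKY15, WRKY22 and WRKY18 in every library. At the other end, 8 tested members averaged under 1 FPKM in wild type. These were WRKY8, WRKY30, WRKY31, WRKY38, WRKY50, WRKY51, WRKY54 and WRKY71.

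Of the 5 untested members, WRKY55 was listed at 0 in every library. WRKY34, a pollen gene, was listed at 0 in all but bes1-D replicate 1, at 0.06 FPKM. WRKY12, a repressor of secondary wall formation in stem pith, lay between 0.26 and 1.0 FPKM over all libraries. WRKY13, a regulator of stem lignification, lay between 0.64 and 1.81 FPKM, and WRKY42, a regulator of phosphate transport, between 0.12 and 0.66 FPKM.

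In RAV1 over-expression WRKY genes of several family groups were higher than in wild type, among them WRKY75, WRKY47, WRKY28 and WRKY25. Of the 49 tested members, 17 were called higher than in wild type (limma, Benjamini-Hochberg adjusted p under 0.05 over 19740 loci) and 0 were called lower. Among all tested loci 23.0% were called, 15.0% higher and 8.01% lower. Trimmed-mean scaling turned this balance over all loci from 2960 higher and 1581 lower to 1885 and 2210, and left 15 members higher and 1 lower. The median difference was 0.37 on the log2(FPKM + 1) scale over the tested members and 0.09 over all tested loci. At an unadjusted p under 0.05, 24 members differed, 1 of them downward. The called members were 8 of 12 tested in group IIc, 2 of 4 in IIb, 2 of 6 in IId, 2 of 7 in IIe, 1 of 3 in IIa, 1 of 10 in I and 1 of 7 in III. On this scale the change of a gene near 1 FPKM is understated. A group of 7 members (WRKY8, WRKY30, WRKY31, WRKY38, WRKY51, WRKY54 and WRKY71) passed the filter on low values only with RAV1 over-expression libraries counted, and 3 of them are among the 17. Of the other 42 tested members, 14 were called higher. Without those 7 the calls were 6 of 9 in group IIc, 2 of 3 in IIb and 0 of 4 in III, and the other groups kept their counts.

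**Figure D1:**
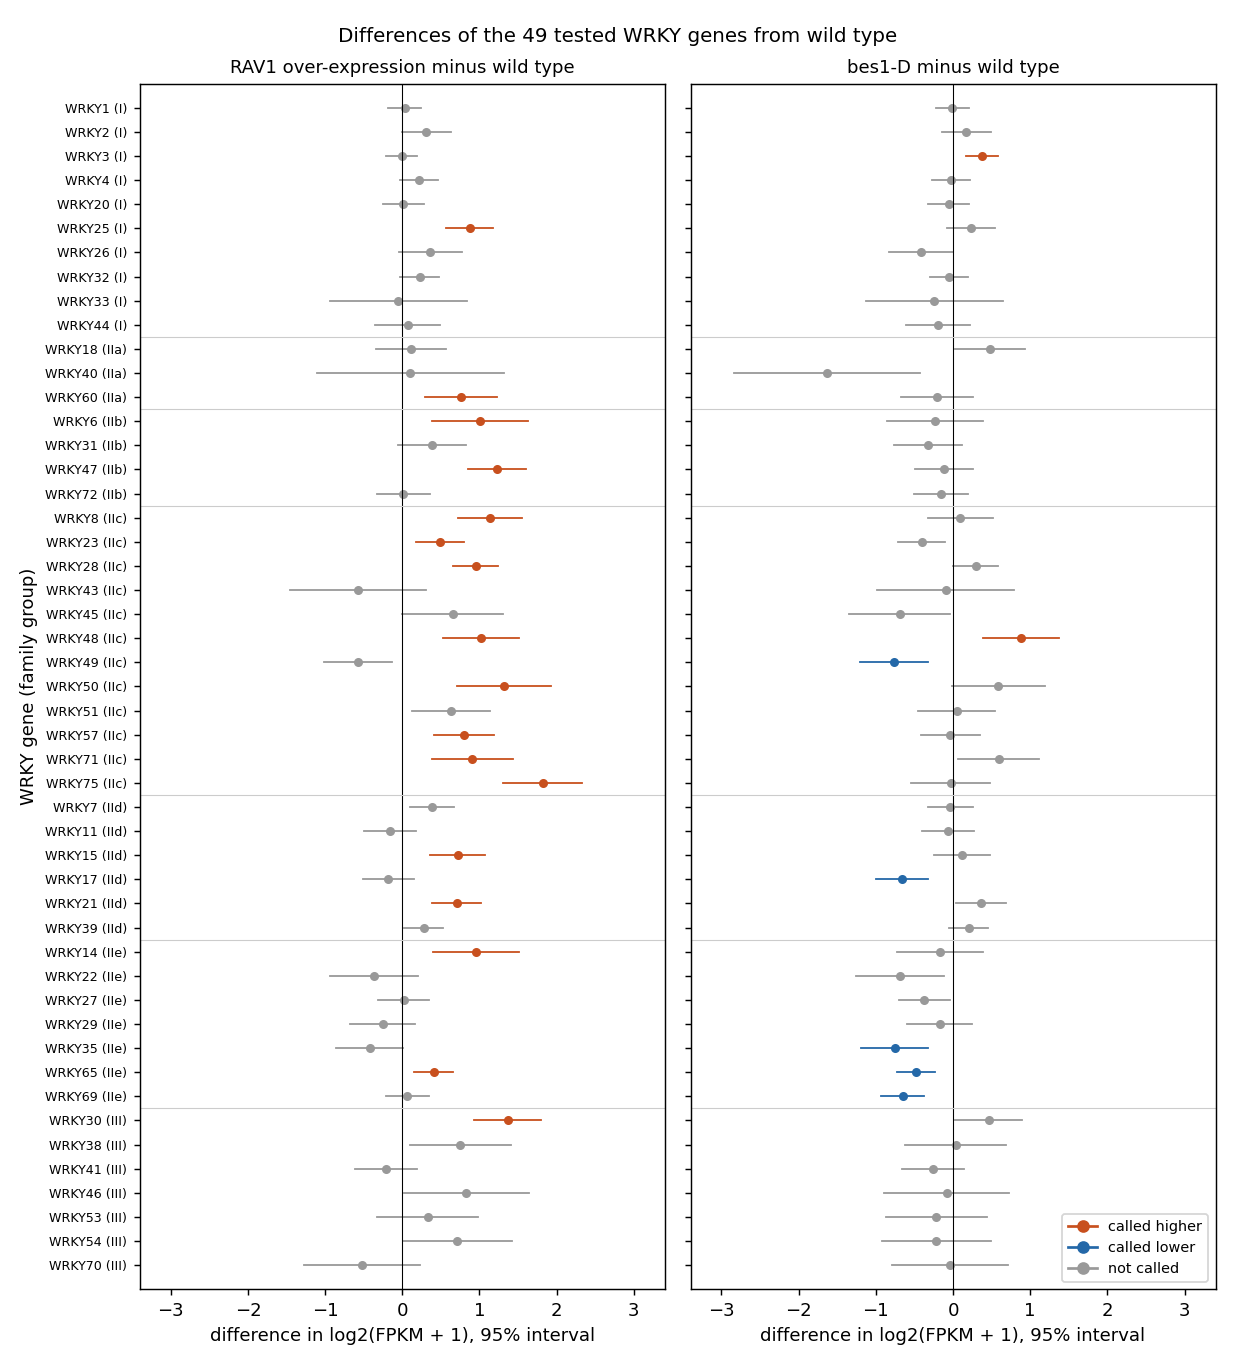
Difference of each of the 49 tested WRKY genes from wild type in log2(FPKM + 1), for RAV1 over-expression (left) and bes1-D (right), ordered by family group. Points are limma estimates and lines are 95% intervals; 17 points are called higher and 0 lower on the left, 2 higher and 5 lower on the right.

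Group IIc held the largest difference on the log2(FPKM + 1) scale, that of WRKY75 (AT5G13080), a regulator of phosphate starvation responses and an activator of leaf ageing. WRKY75 measured 1.34, 1.10 and 1.33 FPKM in wild type, 5.52, 7.26 and 8.36 FPKM in RAV1 over-expression and 0.58, 2.00 and 1.28 FPKM in bes1-D. The RAV1 over-expression libraries were all above the rest, and bes1-D spread around wild type. WRKY75 was 5.61-fold higher in RAV1 over-expression than in wild type (log2 difference 1.82 ± 0.23, SE, limma adjusted p = 0.000819). Its level in bes1-D differed from wild type by -0.03 (95% interval -0.54 to 0.48).

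Of the other group IIc genes, WRKY8, WRKY28 and WRKY71 are close relatives, as are WRKY50 and WRKY51. WRKY28 (AT4G18170), an activator of the salicylic acid synthesis gene ICS1, measured 8.36, 9.42 and 7.99 FPKM in wild type and 19.4, 15.9 and 17.4 FPKM in RAV1 over-expression (log2 difference 0.95 ± 0.13, limma adjusted p = 0.00115). WRKY48 (AT5G49520), a repressor of basal resistance to bacteria, measured 2.55, 3.11 and 2.88 FPKM in wild type, 10.4, 5.23 and 5.62 FPKM in RAV1 over-expression and 5.36, 7.45 and 5.61 FPKM in bes1-D. WRKY48 was above wild type in every library of both other genotypes, by 1.02 ± 0.22 in RAV1 over-expression (adjusted p = 0.0092). WRKY50 (AT5G26170), which acts with WRKY51 in the repression of jasmonate responses by salicylic acid, measured 0.67, 0.40 and 1.89 FPKM in wild type and 4.06, 3.51 and 3.60 FPKM in RAV1 over-expression. Its groups did not overlap, and the log2 difference was 1.32 ± 0.27 (adjusted p = 0.00748). WRKY51 measured 0.26, 0.61 and 0.80 FPKM in wild type and 2.14, 1.08 and 1.07 FPKM in RAV1 over-expression, a difference of 0.63 (95% interval 0.13 to 1.13) that was not called (adjusted p = 0.069).

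WRKY8 (AT5G46350), a gene of salt stress and defence responses, was barely measured outside RAV1 over-expression. It stood at 0.44, 0 and 0.16 FPKM in wild type, 1.64, 1.42 and 1.78 FPKM in RAV1 over-expression and 0.19, 0.31 and 0.31 FPKM in bes1-D. WRKY71 (AT1G29860), an activator of shoot branching and flowering, measured 0.10, 0.12 and 0.19 FPKM in wild type, 1.14, 0.67 and 1.72 FPKM in RAV1 over-expression and 0.45, 1.25 and 0.53 FPKM in bes1-D. Both were called higher in RAV1 over-expression, by 1.14 ± 0.19 for WRKY8 (adjusted p = 0.0027) and by 0.91 ± 0.24 for WRKY71 (adjusted p = 0.0209). As ratios of mean FPKM these were 8.07-fold and 8.61-fold, larger than that of WRKY75, over wild-type means of 0.20 and 0.14 FPKM. WRKY8 would not have been tested without any 1 of the 3 RAV1 over-expression libraries, because it passed the filter through those libraries alone.

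The remaining group IIc members called higher were expressed at moderate levels in wild type. WRKY57 (AT1G69310), which acts in drought tolerance and restrains jasmonate-driven leaf ageing, measured 18.4, 15.8 and 17.0 FPKM in wild type and 28.8, 24.9 and 39.5 FPKM in RAV1 over-expression (difference 0.80 ± 0.17, adjusted p = 0.00923). WRKY23 (AT2G47260), an auxin-responsive gene of root development, measured 4.99, 5.26 and 5.50 FPKM in wild type and 8.87, 8.43 and 6.25 FPKM in RAV1 over-expression (0.49 ± 0.14, adjusted p = 0.0287). In bes1-D WRKY23 measured 3.56, 3.60 and 4.01 FPKM, below every wild-type library, and was not called (adjusted p = 0.104). WRKY45, an activator of the phosphate transporter gene PHT1;1, ranged from 14.0 to 18.4 FPKM in wild type and from 20.5 to 35.6 FPKM in RAV1 over-expression and was not called (0.65, adjusted p = 0.134). WRKY49 was the member nearest to a call in the downward direction, with 14.1, 14.8 and 22.0 FPKM in wild type against 10.8, 11.8 and 10.1 FPKM in RAV1 over-expression (-0.57, 95% interval -1.01 to -0.13, adjusted p = 0.0632).

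In group IIb, WRKY47 and WRKY6 were called higher. WRKY47 (AT4G01720) measured 14.5, 12.7 and 13.9 FPKM in wild type, 36.5, 24.4 and 41.6 FPKM in RAV1 over-expression and 13.4, 13.3 and 11.2 FPKM in bes1-D. It was 2.49-fold higher in RAV1 over-expression than in wild type (log2 difference 1.23 ± 0.17, adjusted p = 0.00117), with no overlap of the groups. WRKY6 (AT1G62300), a regulator of leaf ageing that represses the phosphate exporter gene PHO1, measured 12.3, 13.3 and 17.7 FPKM in wild type and 30.5, 24.3 and 35.5 FPKM in RAV1 over-expression (1.01 ± 0.28, adjusted p = 0.0292). WRKY6 was the called member nearest to the threshold, and its bes1-D libraries ranged from 8.73 to 20.1 FPKM.

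WRKY60 was the group IIa member called higher, at 5.51, 3.95 and 4.81 FPKM in wild type and 8.23, 6.33 and 12.4 FPKM in RAV1 over-expression (0.76 ± 0.21, adjusted p = 0.0271). WRKY18, WRKY40 and WRKY60 form complexes with one another and tune defence and abscisic acid responses. WRKY18 ranged from 27.8 to 48.7 FPKM in wild type and from 34.8 to 52.5 FPKM in RAV1 over-expression, so its groups overlapped (0.12, 95% interval -0.34 to 0.57).

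In group I, WRKY25 (AT2G30250), a gene of heat and salt tolerance, was called higher. WRKY25 measured 14.5, 16.1 and 19.8 FPKM in wild type, 34.1, 29.4 and 30.8 FPKM in RAV1 over-expression and 16.4, 21.4 and 21.8 FPKM in bes1-D (RAV1 over-expression minus wild type 0.87 ± 0.14, adjusted p = 0.00219). WRKY26, which acts with WRKY25 and WRKY33 in heat tolerance, ranged from 28.5 to 33.7 FPKM in wild type and from 34.9 to 46.2 FPKM in RAV1 over-expression without a call (adjusted p = 0.179). WRKY44 (TTG2), a regulator of leaf hairs and seed coat mucilage, ranged from 1.36 to 2.59 FPKM in wild type and from 2.04 to 2.26 FPKM in RAV1 over-expression, and these groups overlapped. The other group I members lay between -0.05 and 0.31 on the log2 scale, and none of them was called.

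Group IId proteins bind calmodulin, and WRKY15 and WRKY21 of this group were called higher. WRKY15 (AT2G23320), a regulator of cell expansion and osmotic stress tolerance, measured 41.3, 44.3 and 52.8 FPKM in wild type and 82.8, 71.4 and 74.9 FPKM in RAV1 over-expression (0.72 ± 0.16, adjusted p = 0.0105). WRKY21 (AT2G30590) measured 17.96, 17.17 and 22.06 FPKM in wild type, 28.8, 27.4 and 39.6 FPKM in RAV1 over-expression and 24.0, 26.5 and 23.4 FPKM in bes1-D (RAV1 over-expression minus wild type 0.70 ± 0.14, adjusted p = 0.00721). Both genes were higher in all RAV1 over-expression libraries than in any wild-type library. WRKY7 was the member just outside the threshold, at 32.3 to 37.5 FPKM in wild type and 41.8 to 52.9 FPKM in RAV1 over-expression (0.38, adjusted p = 0.0556). WRKY11 and WRKY17, related repressors of basal resistance, differed by -0.16 (95% interval -0.50 to 0.18) and -0.18 (-0.51 to 0.15).

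In group IIe, WRKY14 (AT1G30650) measured 6.61, 3.70 and 6.10 FPKM in wild type and 12.3, 9.19 and 12.7 FPKM in RAV1 over-expression (0.96 ± 0.25, adjusted p = 0.0219). WRKY65 (AT1G29280) measured 32.4, 37.1 and 41.7 FPKM in wild type, 47.2, 47.5 and 53.2 FPKM in RAV1 over-expression and 29.2, 25.2 and 24.2 FPKM in bes1-D. The 3 genotypes did not overlap in WRKY65, and its rise in RAV1 over-expression was 0.41 ± 0.11 (adjusted p = 0.0265). WRKY22 and WRKY29, which act downstream of a MAP kinase cascade in immunity to bacteria, were not called and differed by -0.37 (95% interval -0.94 to 0.20) and -0.25 (-0.67 to 0.17).

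In group III, WRKY30 (AT5G24110), a gene induced early by oxidative stress and pathogens, was called higher. WRKY30 measured 0.32, 0.28 and 0.59 FPKM in wild type, 3.19, 2.78 and 1.91 FPKM in RAV1 over-expression and 1.21, 0.78 and 0.78 FPKM in bes1-D. The RAV1 over-expression libraries were all highest and the bes1-D libraries all lay between them and wild type. The log2 difference from wild type was 1.37 ± 0.19 in RAV1 over-expression (adjusted p = 0.00137) and 0.46 ± 0.19 in bes1-D (adjusted p = 0.183). The BES1 partner genes were not called in RAV1 over-expression. WRKY46 measured 2.11, 4.15 and 4.42 FPKM in wild type and 11.6, 7.68 and 3.47 FPKM in RAV1 over-expression (0.83, 95% interval 0.02 to 1.64, adjusted p = 0.124). WRKY54 measured 0.51, 0.86 and 1.14 FPKM in wild type and 2.30, 0.76 and 3.54 FPKM in RAV1 over-expression (0.71, 95% interval 0.01 to 1.42, adjusted p = 0.131). WRKY70 measured 10.4, 21.2 and 18 FPKM in wild type and 10.1, 7.04 and 17.2 FPKM in RAV1 over-expression (-0.52, 95% interval -1.27 to 0.23). The groups overlapped for each of these partner genes, so a difference was not resolved at this replicate spread. WRKY38, a repressor of basal defence that binds the histone deacetylase HDA19, ranged from 0.39 to 0.71 FPKM in wild type and from 0.93 to 2.58 FPKM in RAV1 over-expression (0.75, adjusted p = 0.0904).

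**Figure D2:**
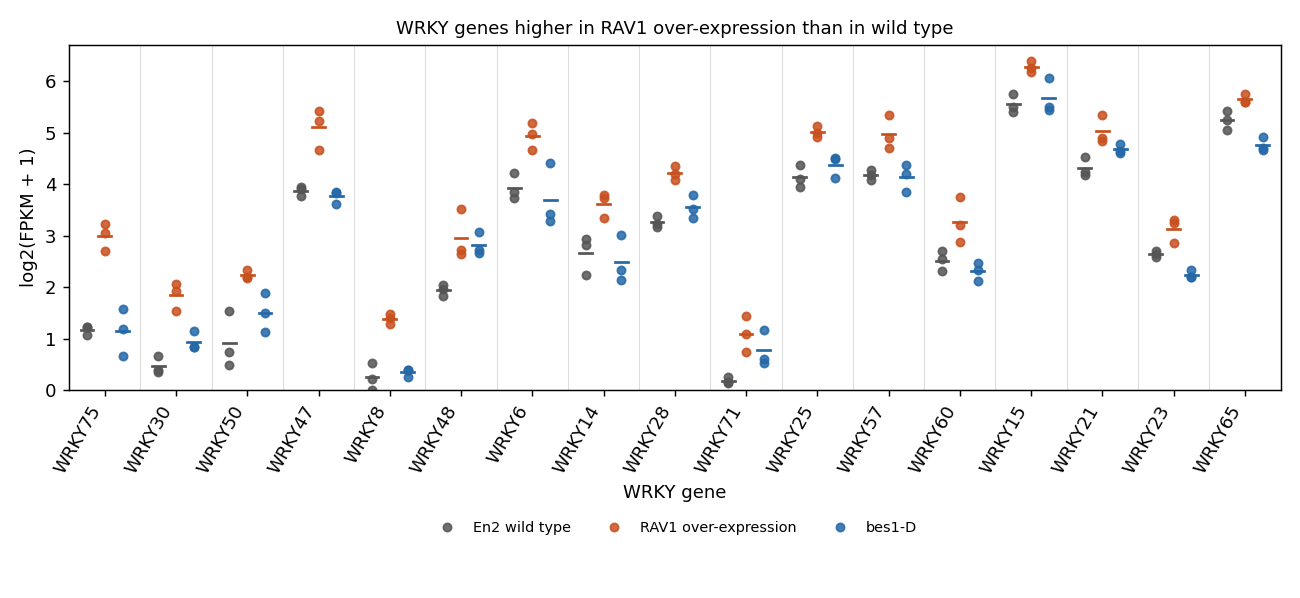
Level of the 17 WRKY genes called higher in RAV1 over-expression than in wild type, as log2(FPKM + 1), in each of 9 libraries (points) with the mean of 3 replicates (short lines). In all 17 genes every RAV1 over-expression library is above every wild-type library, and in 15 of them also above every bes1-D library. Over all tested loci these shares are 31.2% and 38.2%. The 17 genes were called from these same libraries, which favours such a separation.

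Over the 49 tested members the groups did not overlap in 26 with RAV1 over-expression higher (31.2% of all tested loci) and in 3 with it lower (15.6% of all tested loci). The 26 include all 17 called members. Among the 26 are WRKY8, WRKY30, WRKY31, WRKY38, WRKY51 and WRKY71. These passed the filter on low values only with RAV1 over-expression libraries counted, which favours such a separation. The order of the RAV1 transcript itself over the RAV1 over-expression libraries (replicate 2, then 1, then 3) was also the order of 8 of the 17 members (47.1%). It was the order of 51.5% of the 2960 loci called higher in RAV1 over-expression, so this share of the members was close to the background.

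Among the 17 calls, 10 were kept when any 1 of the 9 libraries was left out. These were WRKY15, WRKY21, WRKY25, WRKY28, WRKY30, WRKY47, WRKY48, WRKY50, WRKY57 and WRKY75. Without RAV1 over-expression replicate 1 the count fell to 10, and the calls of WRKY23 and WRKY65 were also lost under trimmed-mean scaling and under quantile normalization.

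WRKY33, WRKY40, WRKY46 and WRKY53 are known as fast genes that respond within minutes to touch, wounding or elicitors, and they varied between replicates of a genotype. WRKY33 measured 29.7, 66.8 and 56.5 FPKM in wild type, 55.2, 63.1 and 28.95 FPKM in RAV1 over-expression and 27.3, 56.6 and 43.3 FPKM in bes1-D. WRKY53 (AT4G23810), a regulator of leaf ageing, measured 5.01, 8.87 and 10.47 FPKM in wild type, 11.47, 12.84 and 6.81 FPKM in RAV1 over-expression and 4.75, 8.64 and 6.81 FPKM in bes1-D. Wild-type replicate 1 and RAV1 over-expression replicate 3 were the lowest of their groups in all 4 genes. The summed level of 13 touch and wound genes was 400.2, 739 and 673 FPKM in wild type, 607, 655 and 386 FPKM in RAV1 over-expression and 544, 743 and 812 FPKM in bes1-D, with the same pair of libraries lowest. None of these 13 genes was called against wild type by limma in RAV1 over-expression (1 at an unadjusted p under 0.05) or in bes1-D (6 at an unadjusted p under 0.05). The part of such handling responses in the levels of the 4 WRKY genes was not tested. WRKY53 shares 341 bases with its antisense neighbour 3xHMG-box2. Reads within these shared bases cannot be assigned to either gene, because the use of strand in counting is not stated. The same holds for the shared bases of WRKY69 and of WRKY1, WRKY2, WRKY4, WRKY29, WRKY33, WRKY34, WRKY40 and WRKY41, which also overlap an antisense gene.

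**Figure D3:**
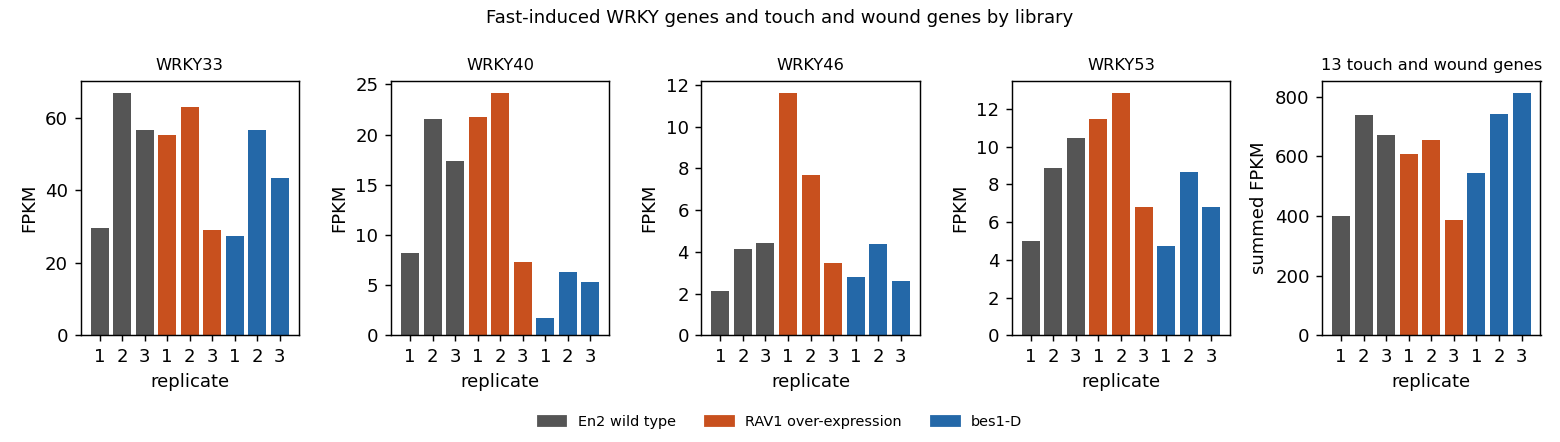
FPKM of WRKY33, WRKY40, WRKY46 and WRKY53 and the summed FPKM of 13 touch and wound genes in each of the 9 libraries (bars, 1 per replicate, coloured by genotype). Wild-type replicate 1 and RAV1 over-expression replicate 3 are the lowest of their groups in all 5 panels.

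In bes1-D fewer WRKY genes were called against wild type than in RAV1 over-expression. Of the 49 tested members, 2 were called higher and 5 lower (14.3% in all). Among all tested loci 2.19% were called higher and 5.77% lower (7.96% in all), so lower calls were the more frequent there too. The groups did not overlap in 5 members with bes1-D higher (9.65% of all tested loci) and in 8 with bes1-D lower (19.8%). The median difference was -0.08 over the tested members and -0.06 over all tested loci. At an unadjusted p under 0.05, 18 members differed, 11 of them downward. Under trimmed-mean scaling 2 were higher and 2 lower, with 645 higher and 705 lower over all loci instead of 433 and 1139. Both comparisons share the wild-type libraries, so a wild-type library far from the others moves both.

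Among the 5 lower members, WRKY35, WRKY65 and WRKY69 are of group IIe. All 7 tested members of IIe had negative estimates, from -0.76 to -0.17, and so had all 4 tested in IIb. Negative estimates were also found for 34 of the 49 tested members and 11957 of the 19740 tested loci. WRKY69 (AT3G58710) measured 10.98, 10.84 and 10.71 FPKM in wild type, 13.7, 11.3 and 9.56 FPKM in RAV1 over-expression and 6.13, 6.53 and 6.95 FPKM in bes1-D. It was 39.7% below wild type in bes1-D (log2 difference -0.65 ± 0.13, SE, limma adjusted p = 0.013), and every bes1-D library was lower than every other library. WRKY69 shares 373 bases with the antisense gene AT3G58720, which measured 6.06 to 6.73 FPKM in wild type and 5.94 to 11.2 FPKM in bes1-D. WRKY65 fell by 0.48 ± 0.11 (adjusted p = 0.0296) with the library values given above. WRKY35 (AT2G34830) measured 4.91, 3.67 and 3.25 FPKM in wild type, 2.42, 2.82 and 2.72 FPKM in RAV1 over-expression and 2.15, 1.21 and 2.50 FPKM in bes1-D. Its bes1-D fall was -0.76 ± 0.20 (adjusted p = 0.0435), and it was the called member nearest to the threshold. WRKY22 measured 28.1, 47.6 and 54.8 FPKM in wild type and 19.4, 32.1 and 27.1 FPKM in bes1-D and was not called (-0.68, 95% interval -1.25 to -0.12, adjusted p = 0.134).

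WRKY17 (AT2G24570) measured 34.8, 31.1 and 49.1 FPKM in wild type, 34.34, 35.06 and 30.02 FPKM in RAV1 over-expression and 24.7, 24.0 and 21.7 FPKM in bes1-D. It was 38.8% below wild type in bes1-D (-0.66 ± 0.15, adjusted p = 0.0268), with all bes1-D libraries below all others. Its close relative WRKY11 did not separate in bes1-D, at 52.3, 76.1 and 74.3 FPKM (-0.07, 95% interval -0.41 to 0.27). WRKY49 (AT5G43290) measured 8.16, 12.7 and 7.77 FPKM in bes1-D, below the lowest wild-type library at 14.1 FPKM (-0.77 ± 0.20, adjusted p = 0.042).

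The 2 members called higher in bes1-D were WRKY3 and WRKY48. WRKY3 (AT2G03340), a group I gene of resistance to fungi that kill their host, measured 15.3, 16.0 and 14.7 FPKM in wild type, 15.5, 13.9 and 16.3 FPKM in RAV1 over-expression and 21.5, 19.4 and 19.6 FPKM in bes1-D. Its bes1-D libraries were above all others (0.37 ± 0.09, adjusted p = 0.0374). WRKY48 was 2.16-fold higher than in wild type (0.88 ± 0.22, adjusted p = 0.038).

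The largest estimate in bes1-D belonged to WRKY40 (AT1G80840), which was not called. WRKY40 measured 8.24, 21.6 and 17.3 FPKM in wild type, 21.8, 24.1 and 7.33 FPKM in RAV1 over-expression and 1.73, 6.35 and 5.34 FPKM in bes1-D. Every bes1-D library was below every wild-type library (-1.64 ± 0.53, 95% interval -2.84 to -0.43, adjusted p = 0.1002). The touch and wound genes had a median difference of -0.74 in bes1-D, but the list was split. TCH2, TCH3, TCH4 and CBF2 had positive estimates, and the other genes of the list had negative ones. The summed level of the list, given by library above, averaged 604 FPKM in wild type and 700 FPKM in bes1-D. WRKY18 had the opposite sign to WRKY40, at 48.0, 53.4 and 59.8 FPKM in bes1-D (0.48, 95% interval 0.02 to 0.93, adjusted p = 0.192). The BES1 partners differed by -0.08 (95% interval -0.89 to 0.73) for WRKY46, -0.22 (-0.92 to 0.49) for WRKY54 and -0.03 (-0.79 to 0.72) for WRKY70. Of 11 root genes 4 fell in bes1-D, where 5.77% of all tested loci were called lower. Of the other lists, 0 of 9 tested seed maturation genes were called, 1 of 6 shoot genes fell and 1 of 8 leaf senescence genes rose. The part of these shifts in the WRKY levels was not tested.

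**Figure D4:**
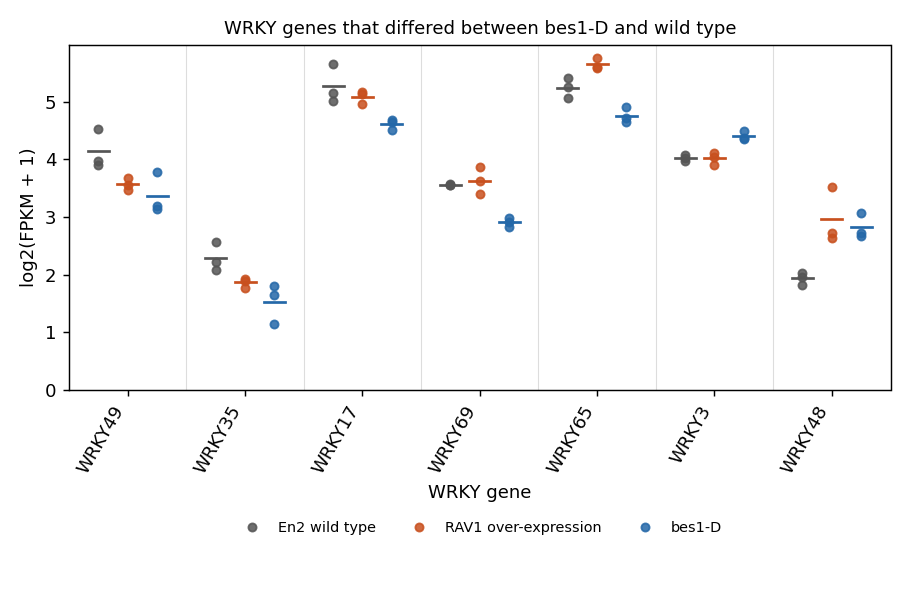
Level of the 7 WRKY genes called different between bes1-D and wild type, as log2(FPKM + 1), in each of 9 libraries (points) with the mean of 3 replicates (short lines). WRKY49, WRKY35, WRKY17, WRKY69 and WRKY65 are lower in every bes1-D library than in any wild-type library, and WRKY3 and WRKY48 are higher.

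None of the 7 bes1-D calls was kept in all 9 fits that left out 1 library, although WRKY69 was lost only without wild-type replicate 2 (adjusted p = 0.0512). Depending on the library left out, 0 to 2 members were called higher and 1 to 5 lower. The calls of WRKY35, WRKY49 and WRKY65 were also lost under trimmed-mean scaling, under quantile normalization and with only the 2 groups compared. WRKY3 was lost in the last of these settings.

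The RAV1 over-expression and bes1-D seedlings differed from each other in 22 tested WRKY genes. Between them 21 members were called higher in RAV1 over-expression and 1 lower, against 28.0% and 10.6% of all tested loci. In either direction 38.5% of all loci were called. WRKY8, WRKY30, WRKY31 and WRKY54 are among the 21 and passed the filter only with RAV1 over-expression libraries counted, and 17 of the other 42 tested members were called higher. The median difference was 0.48 over the tested members and 0.19 over all tested loci. Trimmed-mean scaling moved the median of all loci to 0.02, and 16 members were then higher and 1 lower, with 2409 loci higher and 3099 lower instead of 5520 and 2084. The 1 lower member was WRKY3 (-0.38 ± 0.09, adjusted p = 0.01).

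Of the 21, 13 were also called higher against wild type, and the 8 others were WRKY7, WRKY17, WRKY26, WRKY31, WRKY40, WRKY45, WRKY54 and WRKY69. Both comparisons use the same RAV1 over-expression libraries. Among the 21, the smallest limma adjusted p-values were those of WRKY75 (1.85 ± 0.23, adjusted p = 0.000347), WRKY47 (1.34 ± 0.17, adjusted p = 0.000379) and WRKY65 (0.89 ± 0.11, adjusted p = 0.000379). WRKY40 was 3.97-fold above bes1-D in the RAV1 over-expression libraries (1.74 ± 0.53, adjusted p = 0.0308). WRKY45 ranged from 6.29 to 15.6 FPKM in bes1-D and was 2.59-fold higher in RAV1 over-expression (1.34 ± 0.29, adjusted p = 0.00687). WRKY26 ranged from 18.6 to 32.0 FPKM in bes1-D (0.78 ± 0.19, adjusted p = 0.00906), WRKY31 from 0.29 to 0.88 FPKM (0.72 ± 0.20, adjusted p = 0.0172) and WRKY7 from 30.9 to 41.1 FPKM (0.42 ± 0.13, adjusted p = 0.0281). For WRKY69 and WRKY17 the differences were 0.72 ± 0.13 (adjusted p = 0.00199) and 0.48 ± 0.15 (adjusted p = 0.0297). WRKY54 was the last member called (0.93 ± 0.32, adjusted p = 0.0409) and WRKY50 the first not called (0.73, adjusted p = 0.0561). The groups did not overlap in 20 of the 21, and they did overlap in WRKY54. The 21 were called from these same libraries, which favours such a separation. Over all 49 tested members, 27 had every RAV1 over-expression library above every bes1-D library (38.2% of all tested loci). Among them WRKY8, WRKY30, WRKY31 and WRKY51 passed the filter only with RAV1 over-expression libraries counted. Of the 21 calls, 14 were kept in all 9 fits that left out 1 library. The calls of WRKY7, WRKY17, WRKY40 and WRKY54 were lost under trimmed-mean scaling and under quantile normalization. That of WRKY15 was lost under the former only and that of WRKY31 under the latter only.

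The same 300-base windows of all members were read beside these calls. Of the 17 members higher in RAV1 over-expression, 8 (47.1%) held a W box in 300 bases before the start, against 11 of the 32 tested members not called (34.4%). At least 2 W boxes stood in 2 of the 17 (11.8%) and in 7 of the 32 (21.9%), so the order turned with the number of boxes asked for. None of the 17 windows held CACCTG, the sequence read by the B3 domain of RAV1, on either strand, where 3.10% of all tested promoters did. None held the brassinosteroid response elements CGTGTG or CGTGCG, which stood in 6.35% and 2.00% of all tested promoters. With shares this low, 17 windows are too few to tell the absence of a match apart from the background. CGTGTG stood in 7 of the 32 members not called (21.9%). These motifs are distinct from each other and from the W box in sequence, and a missing match says only that those letters are not in this window.

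The genes that act on WRKY proteins and the genes they act on were read from lists compiled from general knowledge. Of 15 tested partners and upstream genes, 2 rose and 2 fell in RAV1 over-expression against wild type, with a median of 0.17 against 0.09 over all loci. The share called, 26.7%, was close to the 23.0% of all tested loci. SIB2 (AT2G41180), a VQ protein that binds WRKY33, measured 17.9, 19.0 and 22.9 FPKM in wild type, 6, 7.16 and 7 FPKM in RAV1 over-expression and 20.5, 24.7 and 22.6 FPKM in bes1-D. It was lower in every RAV1 over-expression library than in any other (-1.44 ± 0.12, adjusted p = 0.000137). SIB1, its close relative, measured 3.42, 13.8 and 16.4 FPKM in wild type and 1.93, 3.06 and 0.75 FPKM in RAV1 over-expression (-1.92 ± 0.56, adjusted p = 0.0382), a call lost without wild-type replicate 2 or 3 or without RAV1 over-expression replicate 1 or 3. The MAP kinase kinase gene MKK2 rose by 0.29 (adjusted p = 0.0448) and the upstream kinase gene MEKK1 by 0.40 (adjusted p = 0.0149). Both kinase calls were lost under trimmed-mean scaling and quantile normalization. In bes1-D, 0 of the 15 were called by limma, and 1 had an unadjusted p under 0.05.

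Of 12 tested target genes, 4 rose and 2 fell in RAV1 over-expression against wild type, where 15.0% of all tested loci rose and 8.01% fell. The median was 0.48 against 0.09 over all loci. FRK1, a receptor kinase gene of immunity and leaf ageing that WRKY6, WRKY22 and WRKY29 act on, measured 1.66, 1.70 and 2.74 FPKM in wild type, 13.04, 9.18 and 20.21 FPKM in RAV1 over-expression and 0.59, 0.82 and 0.57 FPKM in bes1-D. Its 3 genotypes did not overlap (RAV1 over-expression minus wild type 2.27 ± 0.25, adjusted p = 0.000411). The phosphate genes PHO1 and PHT1;1 moved in opposite directions in RAV1 over-expression. PHO1, which WRKY6 represses, measured 47.1, 37.3 and 46.6 FPKM in wild type and 80.7, 75.0 and 92.5 FPKM in RAV1 over-expression (0.91 ± 0.11, adjusted p = 0.000754). PHT1;1, which WRKY75 and WRKY45 activate, measured 9.88, 13.5 and 2.40 FPKM in wild type, 0.46, 0.39 and 0.41 FPKM in RAV1 over-expression and 1.34, 1.33 and 1.00 FPKM in bes1-D. It fell in both genotypes, by 2.52 ± 0.43 in RAV1 over-expression (adjusted p = 0.0036) and by 1.87 in bes1-D (adjusted p = 0.0308). ABI5, an abscisic acid regulator that WRKY40 represses, rose by 1.71 ± 0.29 (adjusted p = 0.00304), and the salicylic acid receptor gene NPR1 by 0.54 ± 0.14 (adjusted p = 0.0173). The ethylene synthesis gene ACS6, a target of WRKY33, measured 15.0, 21.2 and 20.5 FPKM in wild type and 6.22, 10.2 and 4.77 FPKM in RAV1 over-expression (-1.34 ± 0.22, adjusted p = 0.00283). ABI5 is also active in maturing seeds, and 7 seed maturation genes rose in the same libraries, whose part in the ABI5 level was not tested.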

How the data were processed

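RNA sequencing libraries of 9 samples (3 per genotype, biological replicates per the labels) were used. The authors deposited 1 table of FPKM values for 25199 loci. Per the submitters' processing notes, the tools were FastQC 0.10.1, TopHat2 and Cufflinks 2.1.1, on TAIR10. Any filter, scaling between libraries or use of strand is not given in the sources used here. One blank value, outside the WRKY family, was treated as missing. Depth per library is unknown from FPKM, so no counting interval is given, and precision rests on the spread of 3 replicates. Spread between replicates is all that the p-values measure.

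The 19740 loci that reached 1 FPKM in 3 or more libraries were put on the log2(FPKM + 1) scale and fitted in limma 3.58.1 (R 4.3.3). All 9 libraries entered 1 fit of group means (6 residual degrees of freedom, eBayes with trend and robust options), with 3 two-sided contrasts. A locus was called when its p, adjusted by Benjamini-Hochberg across every tested locus, was under 0.05. The fit was run on simulated data in which only loci of at least 5 FPKM were changed, in 1 group. That run therefore does not cover changes of members at lower levels. Errors of levels are SD of FPKM and errors of differences are SE. Fold and percent values are ratios of mean FPKM. The alternatives were pseudocounts of 0.1 and 5, no filter and a filter of 5 FPKM, trimmed-mean scaling, quantile normalization, fits of only the 2 groups compared, plain eBayes, a replicate block and leaving out each library. Gene positions, promoters and coding sequences came from RefSeq TAIR10.1. Figures were drawn with matplotlib 3.10.9.

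Named members were all those called in any comparison, set members of groups I, IIa and III, the 5 most abundant in wild type and the members nearest to each threshold. Partners and targets were named where called against wild type. WRKY29, WRKY51 and the neighbours of WRKY53 and WRKY69 were added after their values were seen. The members, gene lists and marker lists were chosen with earlier results of these data known.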

Additional observations from a re-analysis of the deposited data

How the results depend on the processing

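The count of members higher in RAV1 over-expression than in wild type (17) lay between 13 and 18 under the 9 settings that kept all libraries, and between 10 and 17 when 1 library was left out. The count lower (0) became 1 with only the 2 groups compared, under quantile normalization and under trimmed-mean scaling (WRKY49), and lay between 0 and 1 with 1 library left out. In bes1-D the count higher (2) became 1 with no filter, with only the 2 groups and with a pseudocount of 5, and lay between 0 and 2 with 1 library left out. The count lower there (5) became 4 with a filter of 5 FPKM and with plain eBayes, 3 with no filter and 2 with only the 2 groups, under quantile normalization and under trimmed-mean scaling, and lay between 1 and 5 with 1 library left out. Between RAV1 over-expression and bes1-D the count higher (21) lay between 16 and 23 and, with 1 library left out, between 14 and 22, and the count lower (1) between 1 and 2. Why these calls were lost was not tested, except that fewer samples or loci entered some fits. No member changed direction while called. Replicate numbers did not pair the libraries: correlations of same-numbered deviations ran from -0.076 to 0.151. With the replicate block, bes1-D had 0 higher and 2 lower (WRKY69 and WRKY22, so 6 of the 7 calls were lost), RAV1 over-expression 16 higher than wild type and 23 above bes1-D. With 3 replicates, members under 1 FPKM and those with wide spread, such as WRKY33 and WRKY40, are the least resolved.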
